A study of Mus musculus with 2 samples.

Results

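A set of 10 regulators of the heart fields and of cardiac muscle was examined in Flk1+Tie2+ cells after a pulse of Mesp1: Nkx2-5, Isl1, Hand1, Hand2, Mef2a, Mef2c, Mef2d, Myocd, Smyd1 and Srf. They were chosen by name, and every probe set that the platform annotation lists under 1 of these symbols was taken. All 10 genes were on the array, with 32 of its 45037 probe sets, among 18193 named genes in all. The cells came from A2lox.Mesp1 mouse embryonic stem cells (129/Ola background), whose Mesp1 transgene is induced by doxycycline (dox), and were differentiated as embryoid bodies. The dox group received dox at 250 ng/mL from day 2 until day 4 and the no dox group none. Both carry the transgene, and in both the cells that displayed Flk1 (encoded by Kdr) and Tie2 (encoded by Tek) were sorted on day 5. Each group is 1 array, so there is no replicate error and no test, and every difference below describes these 2 arrays. Effects of dox as a drug and of the Mesp1 transgene cannot be told apart in this design.

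These regulators act at successive steps of heart formation. Isl1, a LIM-homeodomain factor, marks progenitors of the second heart field, which build the outflow tract, the right ventricle and part of the atria. Nkx2-5, a homeodomain factor, marks both heart fields and is needed for the looping heart tube. Hand1 and Hand2 are basic helix-loop-helix factors of the ventricles and outflow tract. The proteins of the Mef2 family and Srf share the MADS DNA-binding domain. Mef2 proteins bind AT-rich sites in muscle genes and are also active in endothelium and neurons. Srf binds the CArG box and works either with ternary complex factors at immediate early genes or with the myocardin family at muscle and cytoskeletal genes. Myocd (myocardin) is the founding member of that family, and Smyd1 is a muscle-specific histone methyltransferase of the sarcomere and the early ventricle.

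Signals are linear intensities in arbitrary units, as deposited, and a level can be compared only within a probe set. Differences are dox minus no dox on the log2(signal + 16) scale, on which the change of a dim probe set is understated, and folds are taken from them. Each gene stands by its brightest probe set, and a probe set passed the signal filter when its brighter signal reached the median of its own array (127 with dox, 112 without). Of the 32 probe sets 20 passed, 18 of them on both arrays, 1 through the dox array alone and 1 through the array without dox alone, and every gene had at least 1. The remaining 12 were dim on both arrays.

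The labels and the sort could be checked on the same arrays. Mesp1 had a signal of 10977 with dox and 2433 without, from a probe set that may read the transgene, the endogenous gene or both. Kdr and Tek differed by log2 values of 0.08 and 0.08. All 8 endothelial markers (the others were Cdh5, Pecam1, Tie1, Esam, Emcn and Egfl7) lay within 2-fold, and their summed signal was 44083 with dox and 45838 without. Such a sum takes the same probe sets on both arrays, is set mostly by the brightest of them and does not describe each marker. Markers of other cells differed more. Of 10 smooth muscle and mesenchyme markers 9 passed the filter and 8 of these were higher by 2-fold or more. The 10 summed to 36307 with dox and 4739 without, mostly from Acta2 (14719 with dox, 2999 without) and Col3a1 (10557 with dox, 530 without). Of the 9 markers 4 passed through the dox array alone and so had to be higher. The 8 cardiomyocyte markers summed to 2586 with dox and 587 without. Among them Tnnt2, Myh7 and Myl7 were 2-fold or more higher, and Ttn passed the filter at a log2 difference of 0.78. Myh7 and Myl7 passed through the dox array alone and so had to be higher. Actn2, Myh6, Nppa and Tnni3 were below the filter on both arrays. The 6 epicardial markers summed to 2289 with dox and 236 without. Of these 3 passed the filter, all through the dox array alone, and so had to be higher. The 7 blood markers measured summed to 5999 with dox and 9727 without. Of 6 past the filter 2 were at least 2-fold lower and 4 lay within 2-fold, and 1 of the 6 passed through the array without dox alone. Hbb-bh1 (535 with dox, 3282 without) made the largest part of the fall in the blood sum. Of the markers of skeletal muscle, endoderm, neural ectoderm and pluripotent cells (6 each) only 2, 2, 2 and 3 passed the filter. None of these differed 2-fold, though the lowest differences were -0.97 in skeletal muscle and -0.97 in neural ectoderm. The 2 skeletal muscle genes passed through the array without dox alone. More cells of a type and more RNA per cell cannot be told apart in bulk samples. The part of these other cell types in the values below was not tested.

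The 10 regulators did not move as 1 group. By the brightest probe sets Hand2 and Myocd were at least 2-fold higher with dox, Isl1 was at least 2-fold lower and the other 7 differed by less. The background over all 11794 genes past the filter was 5.69% at least 2-fold higher and 2.06% at least 2-fold lower. With 10 genes, of which Myocd passed the filter through the dox array alone and so had to differ, a count of 2 against that background is not a result about the group. Among the 20 probe sets past the filter 2 were higher by that margin and 1 was lower, against 5.86% and 2.08% of all probe sets past it. Among the 12 dim ones 3 were higher and none lower, against 3.71% and 1.86% of all dim probe sets. Over all 32 probe sets these counts were 5 and 1, against 4.84% and 1.98% of the whole array. The median difference of the 10 genes was 0.39, and that of all genes past the filter was 0.05.

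**Figure D1:**
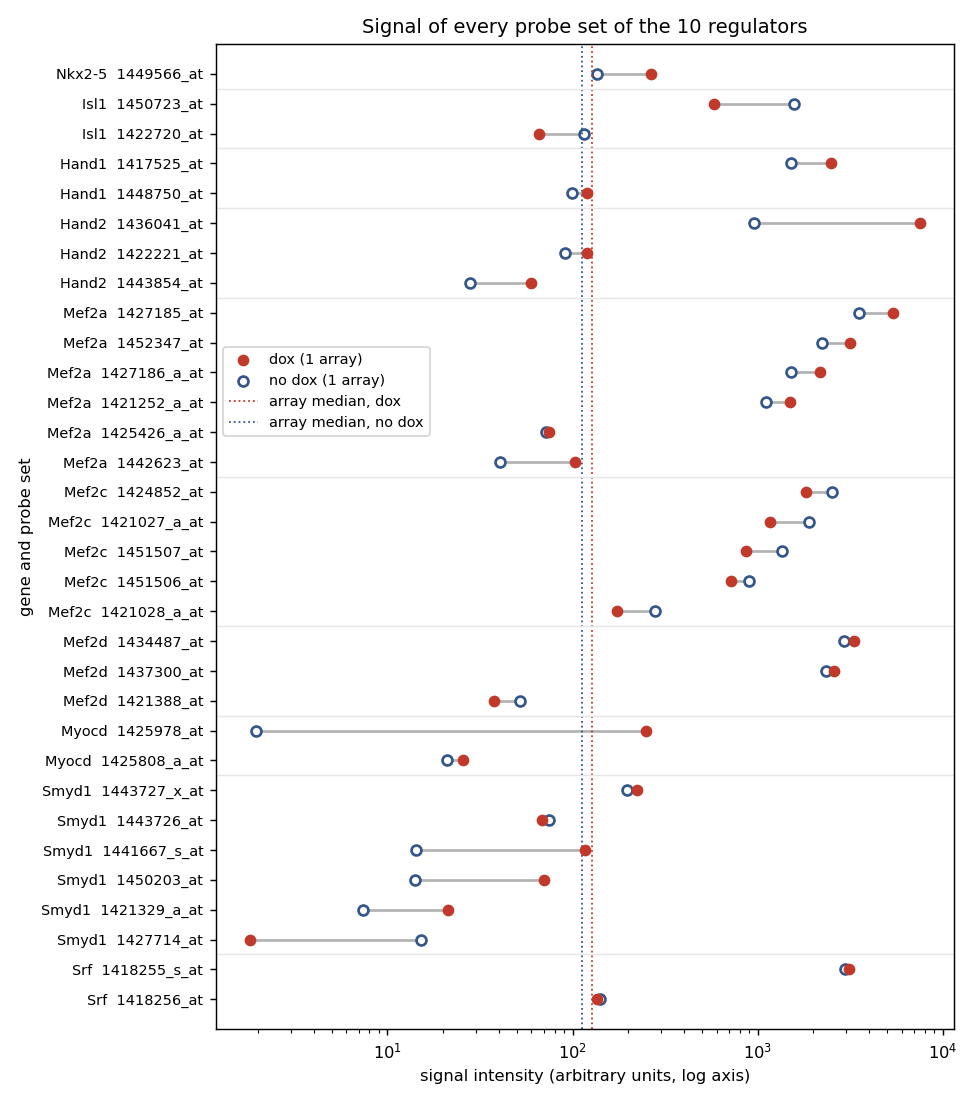
Signal intensity (arbitrary units, log axis) of all 32 probe sets of the 10 regulators on the array with dox (filled) and the array without (open), with each array's median as a dotted line; levels may be compared only along a row. The brightest Hand2 probe set reached 7568 with dox against 958 without, and the brightest Isl1 probe set 581 with dox against 1562 without.

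Hand2 was the bright member with the largest difference. Its brightest probe set had a signal of 7568 with dox and 958 without, 7.79-fold higher (log2 difference 2.96). Of the 11794 genes past the filter 93 had a difference at least as high. The other probe sets of Hand2 were dim on both arrays. The first had signals of 120 with dox and 90.7 without, a log2 difference of 0.35, and the other had 59.9 with dox and 27.9 without, a log2 difference of 0.79. All 3 were thus higher with dox, but a fold of this size rests on 1 of them. Hand1, the paralogue that in the embryo marks the outer curvature of the left ventricle and extraembryonic mesoderm, differed less. Its brightest probe set had 2501 with dox and 1517 without, 1.64-fold higher (log2 difference 0.72). A dim probe set of Hand1 gave 119 with dox and 99.96 without, a log2 difference of 0.22.

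Isl1 was the only one of the 10 genes that was at least 2-fold lower by its brightest probe set. That probe set had 581 with dox and 1562 without, 2.64-fold lower (log2 difference -1.40), and 87 of the 11794 genes were at least as low. The second probe set of Isl1 had 65.6 with dox and 115 without, a log2 difference of -0.69, and passed the filter through the array without dox alone. Both therefore pointed the same way. Nkx2-5 lay just inside the 2-fold limit. Its single probe set had 266 with dox and 136 without, 1.86-fold higher (log2 difference 0.89), and both signals were above the array medians. Of the genes past the filter 787 were at least as high out of 11794.

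The promoters of Hand2 and Isl1 are shown because these genes had the largest differences in opposite directions among the members that passed the filter on both arrays. They are RefSeq windows of build GRCm38.p6, from 250 bases before to 50 after the gene's start, read 5′ to 3′ on the gene's strand, at chr8:57320733-57321032 (plus strand) and chr13:116309639-116309938 (minus strand). Capitals mark GATA sites, spelled as A or T, then GATA, then A or G, on both strands.
Hand2: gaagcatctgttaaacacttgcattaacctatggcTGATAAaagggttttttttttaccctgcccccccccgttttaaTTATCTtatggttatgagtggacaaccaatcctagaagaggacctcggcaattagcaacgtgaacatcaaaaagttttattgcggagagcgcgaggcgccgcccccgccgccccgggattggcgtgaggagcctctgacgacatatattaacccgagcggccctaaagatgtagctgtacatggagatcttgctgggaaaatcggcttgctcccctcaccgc
Isl1: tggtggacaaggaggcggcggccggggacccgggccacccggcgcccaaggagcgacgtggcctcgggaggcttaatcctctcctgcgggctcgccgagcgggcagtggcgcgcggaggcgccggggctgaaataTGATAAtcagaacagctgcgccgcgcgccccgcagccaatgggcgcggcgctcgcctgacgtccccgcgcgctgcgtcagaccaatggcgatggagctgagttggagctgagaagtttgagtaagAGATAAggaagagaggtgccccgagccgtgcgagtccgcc
Each window held 2 GATA matches, and neither held a CArG box or a Mef2 site. Of 32851 windows of the same length 29.8% held at least 1 GATA match and 7.77% held 2 or more. The E-box CANNTG, the site of Hand and other helix-loop-helix proteins, was matched 2 times in the Hand2 window and 1 time in the Isl1 window, and 72.3% of all windows held it. The letters CACTT, part of the Nkx2-5 site, occurred 1 time in the Hand2 window, inside an E-box match, and not in the Isl1 window (46.4% of all windows). A match describes the letters and no binding was measured.

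The Mef2 genes differed in small but separate ways. Mef2a was higher by all 6 probe sets as deposited. The brightest had 5371 with dox and 3518 without, 1.52-fold higher (log2 difference 0.61). The other probe sets of Mef2a past the filter gave 3141 with dox and 2221 without, 2170.1 with dox and 1517 without, and 1487 with dox and 1114 without. These 4 bright probe sets spanned log2 differences of 0.41 to 0.61. A dim one reached 2-fold (103 with dox, 40.6 without), and another dim one was nearly level (74.6 with dox, 72.0 without) and turned to -0.11 once both arrays were given equal medians. Of all genes past the filter 1325 differed at least as much upwards.

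Mef2c, the Mef2 gene needed for the second heart field and for vascular development, was lower by all 5 of its probe sets, each past the filter on both arrays. Their signals were 1814 with dox and 2536 without for the brightest probe set, 1171 with dox and 1901 without for the next, and 867 with dox and 1348 without for the third. The remaining pair had 717 with dox and 899.98 without, and 175 with dox and 278 without. No probe set of Mef2c was higher with dox. The differences ran from -0.69 to -0.32, the brightest being 1.39-fold lower (log2 difference -0.48), and none reached 2-fold. Mef2d, the third family member, was close to level, with 3299 with dox and 2927 without by its brightest probe set and 2601 with dox and 2330.0 without by another. Its log2 differences of 0.17 and 0.16 became -0.01 and -0.02 with equal array medians, and a dim probe set gave -0.34 (37.6 with dox, 51.9 without). The direction of Mef2d is therefore not settled.

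The arrays hold no error between cultures, only a spread between probe sets. Among probe sets past the signal filter, the pooled SD of the log2 difference within a gene was 0.38 over 13823 probe sets of 5173 genes. Probe sets dim on both arrays were left out of it. Among those past the filter with a mean signal of 500 or more it was 0.26, and among those under 500 it was 0.48. This SD measures probes, and probe sets of 1 gene read the same RNA on the same 2 arrays, so it does not say whether Mef2a, Mef2c or any other gene differed beyond the variation between cultures.

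**Figure D2:**
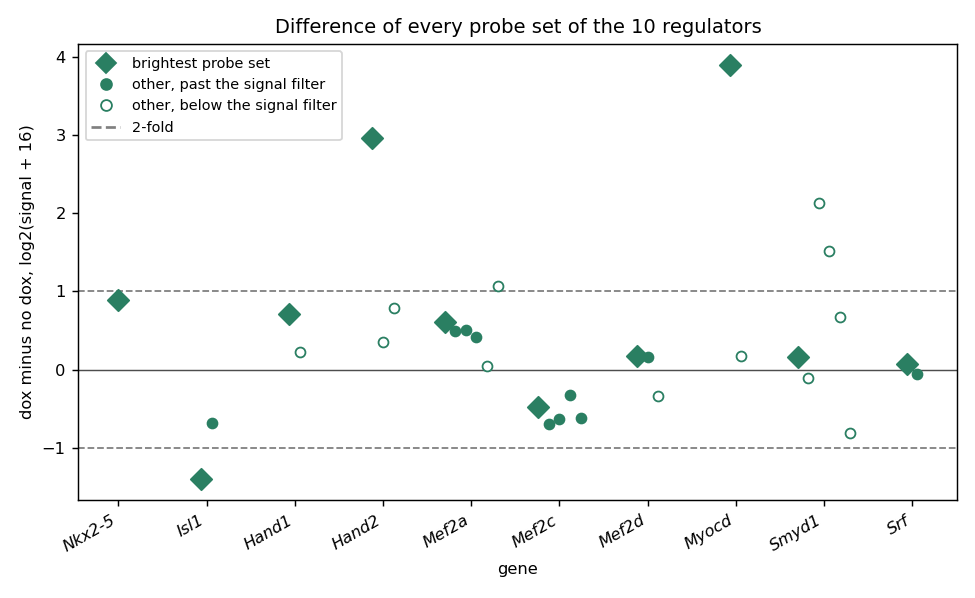
Difference between dox and no dox on the log2(signal + 16) scale for each probe set of the 10 regulators (diamond, brightest probe set; filled, past the signal filter; open, dim on both arrays), with 2-fold as dashed lines. The 6 probe sets of Mef2a lie above 0 and the 5 of Mef2c below it, while those of Smyd1 run from -0.81 to 2.13.

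Myocd was higher with dox from a signal near the floor of the table. Its brighter probe set had 251 with dox and 1.94 without, a log2 difference of 3.90, and the lowest value of the table is 1. The size of that difference is set by the pseudocount, at 6.42 with a pseudocount of 1 and 2.26 with 64, and with 64 it was smaller than that of Hand2 (2.90). The other probe set of Myocd was dim on both arrays, with 25.7 with dox and 20.9 without (log2 difference 0.18). A single probe set thus carried the whole difference.

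Smyd1 was dim by most of its probe sets and they disagreed. The brightest, whose ID carries the mark x for probes that can match other sequences, had 224 with dox and 198 without, a log2 difference of 0.17 that became -0.00386 with equal array medians. The plain probe set listed under the same accession had 68.4 with dox and 75.0 without (log2 difference -0.11). A 2-fold difference was passed by a pair of probe sets below the filter. They had 117 with dox and 14.4 without (log2 difference 2.13), and 70.2 with dox and 14.1 without (1.52). Another gave 21.2 with dox and 7.42 without (0.67). The last, near the floor on the dox array, gave 1.80 with dox and 15.1 without (-0.81). Of the 6 probe sets 4 were higher with dox and 2 lower as deposited, and no level of Smyd1 can be stated from them.

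Srf itself was level. Its brightest probe set, whose ID carries the mark s for probes shared between transcripts, had 3126 with dox and 2968 without (log2 difference 0.07), and the second had 136 with dox and 141 without (-0.05). With equal array medians these became -0.11 and -0.21, both still far inside 2-fold. The median difference of all genes past the filter was -0.13 under that scaling, against 0.05 as deposited, a shift of -0.18, and the bright probe set of Srf moved with it.

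Promoter windows of Srf and Mef2a are shown because each holds the site that its own protein family binds. They lie at chr17:46556113-46556412 (minus strand) and chr7:67372809-67373108 (minus strand) of GRCm38.p6, with the same extent around the start and from the same RefSeq table. Capitals mark the CArG box in Srf (CC, 6 letters of A or T, then GG) and the Mef2 site in Mef2a (CTA, 4 letters of A or T, TA, then A or G), searched on both strands.
Srf: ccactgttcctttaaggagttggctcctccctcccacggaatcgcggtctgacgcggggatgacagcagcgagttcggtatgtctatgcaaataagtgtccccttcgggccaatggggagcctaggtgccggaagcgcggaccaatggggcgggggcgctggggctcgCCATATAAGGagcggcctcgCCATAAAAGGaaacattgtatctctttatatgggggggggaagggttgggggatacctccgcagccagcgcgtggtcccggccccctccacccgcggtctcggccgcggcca
Mef2a: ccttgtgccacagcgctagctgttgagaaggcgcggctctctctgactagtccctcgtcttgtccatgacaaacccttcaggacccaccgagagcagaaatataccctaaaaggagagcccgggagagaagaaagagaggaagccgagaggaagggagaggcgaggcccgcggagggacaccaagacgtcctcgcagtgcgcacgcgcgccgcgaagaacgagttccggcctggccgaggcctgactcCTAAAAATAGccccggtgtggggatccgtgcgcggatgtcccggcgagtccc
The Srf window held 2 CArG boxes, at -82 and -62 from the start. Of 32851 windows 535 (1.63%) held at least 1 CArG box and 6 held 2 or more. The Mef2a window held 1 Mef2 site, which spans the start from -2, and 1.86% of all windows held at least 1. Windows were found for 8 of the 10 genes, 10 windows in all, and none was found for Hand1 and Myocd. No other window of a member held a CArG box or a Mef2 site.

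Genes that act beside these regulators were read from fixed lists. Of 26 other heart field and cardiac factors 24 were measured and 18 passed the filter. With dox 8 of these were at least 2-fold higher and 1 (Foxh1, named after its value was seen) at least 2-fold lower, 9 differed by less, and the median was 0.92. Over all genes past the filter 5.69% were higher and 2.06% lower by that margin and the median was 0.05, which is the background for each list below as well. Foxh1 rests on its brightest probe set, since its differences ran from -1.19 up to 0.35. The largest differences were those of Tbx20, Gata4 and Gata5. Tbx20, a T-box factor of myocardium and endocardium, had 9593 with dox and 426 without (log2 difference 4.44). Gata4, a zinc finger factor that binds DNA together with Nkx2-5, had 1558 with dox and 112 without (3.62, and 1.39 by its other probe set). Gata5, a related factor of the endocardium, had 507 with dox and 35.0 without (3.36, and 0.60 by its other probe set). Of the 8 higher genes 4 (Gata4, Gata5, Tbx2 and Irx5) passed the filter through the dox array alone and so had to be higher.

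Partners and modifiers of the 10 regulators differed little. All 21 were measured, and of 18 past the filter 1 was at least 2-fold higher and none at least 2-fold lower, with a median of 0.13. The gene past 2-fold was Smarcd3 (1114 with dox, 158 without, log2 difference 2.70), which encodes a subunit that brings chromatin remodelling complexes to heart genes. Hdac4, a class II histone deacetylase that represses Mef2 proteins, had 576 with dox and 289 without (0.96). Mrtfb, a relative of myocardin that is also a coactivator of Srf, had 5496 with dox and 3223 without (0.77). Each was represented by its brightest probe set, and the others ranged down to 0.11 for Hdac4 and -0.12 for Mrtfb.

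Cardiac muscle genes that Mef2, Nkx2-5, Gata4 or Srf are known to activate were dim in about as many cases as they passed the filter. Of 28 listed genes 27 were measured, 14 of these were dim on both arrays, and of 13 past the filter 7 were at least 2-fold higher, 6 lay within 2-fold and none was at least 2-fold lower. Nebl, a Z-disc protein, had 379 with dox and 1, the floor of the table, without, and a log2 difference as little as 0.78 by other probe sets. The embryonic and atrial myosin light chain Myl4 had 674 with dox and 31.0 without (log2 difference 3.87, and 0.33 by its other probe set). Cardiac troponin T, Tnnt2, had 1469 with dox and 122 without (3.43, and as little as 0.55 by other probe sets). The median was 1.38 among genes past the filter but 0.25 over all 27 measured. Of the 7 higher genes 4 (Nebl, Myl4, Myh7 and Myl7) passed the filter through the dox array alone and so had to be higher. Another 1 of the 13 genes passed through the array without dox alone.

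Genes that Srf serves through different partners were read in 3 lists. Of 16 smooth muscle genes of Srf and myocardin 13 passed the filter, 6 were at least 2-fold higher and 2 (Mylk and Smtn, named after their values were seen) at least 2-fold lower, with a median of 0.75. Of the 6 higher genes 3 (Tagln, Cnn1 and Actg2) passed the filter through the dox array alone and so had to be higher. Mylk was not uniform, with differences between -2.01 and 0.74 over its probe sets. Tagln (transgelin) had 3960 with dox and 96.7 without (log2 difference 5.14). Smooth muscle actin, Acta2, had 14719 with dox and 2999 without (2.29, and as little as 0.88 by other probe sets). Calponin, Cnn1, had 147 with dox and 1, the floor, without. All 13 cytoskeletal genes of Srf and its myocardin-related coactivators passed the filter, of which 2 were at least 2-fold higher and none at least 2-fold lower, with a median of 0.21. Those were the myosin light chain Myl9 (631 with dox, 41.4 without, log2 difference 3.49) and the matricellular gene Ccn2 (2356 with dox, 419 without, 2.45), and Myl9 passed the filter through the dox array alone. Pfn1, a profilin, had the third largest difference (3011 with dox, 4425 without, -0.55). Of 9 immediate early genes of Srf and ternary complex factors 7 passed the filter and all 7 lay within 2-fold, with a median of 0.10. The largest differences there were those of the transcription factor genes Fosb (311 with dox, 234 without, 0.39) and Egr1 (4935 with dox, 3934 without, 0.33) and of Ier2 (4561 with dox, 5755 without, -0.33). The smooth muscle and mesenchyme markers given above share Tagln, Acta2, Cnn1 and Myh11 with the first of these lists, so the 2 overlap. Whether the lists differ from one another was not tested.

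**Figure D3:**
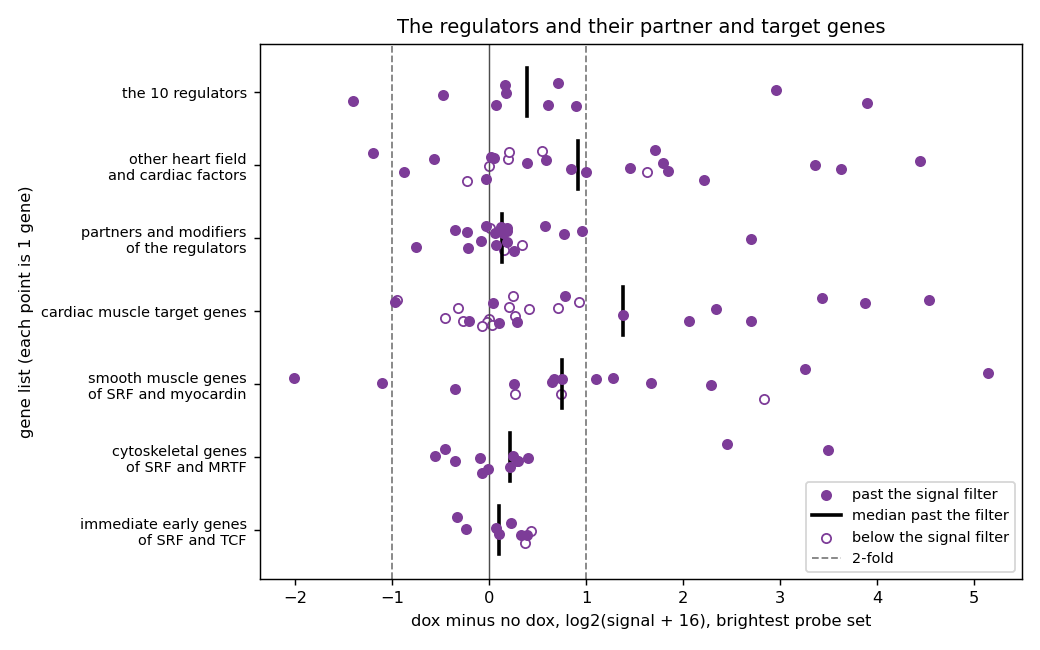
Difference between dox and no dox (log2(signal + 16), brightest probe set) for the 10 regulators and 6 lists of partner and target genes; each point is 1 gene, filled when past the signal filter, and the bar is the median of the filled points. The medians are 0.39 for the regulators, 0.92 for other heart factors, 0.13 for partners, 1.38 for cardiac muscle genes and 0.75, 0.21 and 0.10 for the smooth muscle, cytoskeletal and immediate early genes of Srf.

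The direction of 7 of the 10 regulators was the same under all 6 other ways of processing that were tried for single genes. These were Hand2, Myocd, Nkx2-5, Hand1 and Mef2a on the higher side and Isl1 and Mef2c on the lower. A pseudocount cannot turn a sign, and a rule of plain _at IDs kept the same probe set for each of these 7 genes. The mean over probe sets could not turn it either, since all probe sets of each gene lay on 1 side of 0 as deposited. Only equal array medians and quantile normalization could have changed the direction of these 7 genes. Hand2 ranged from 1.37, the mean over its probe sets, to 2.98, and Isl1 from -1.58 to -1.05, so both stayed past 2-fold. Mef2d, Smyd1 and Srf changed sign under some of the 6 ways.

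**Figure D4:**
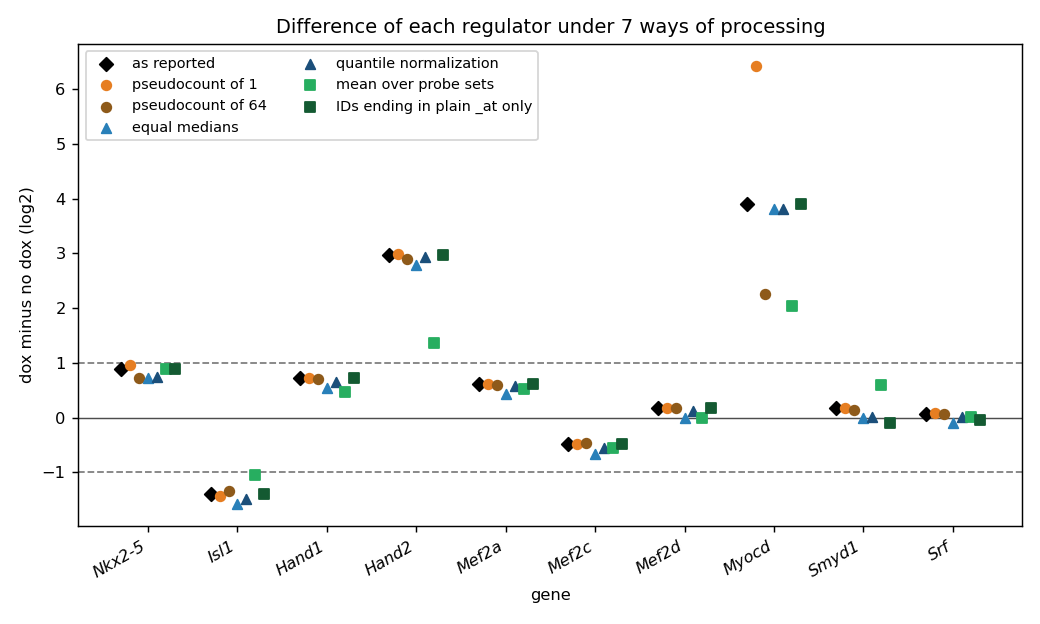
Difference between dox and no dox (log2) of each regulator as reported (black diamond) and under 6 other ways of processing, with 2-fold as dashed lines. Hand2, Myocd and Isl1 stay outside 2-fold throughout, Myocd over a range from 2.04 to 6.42, and Mef2d, Smyd1 and Srf stay around 0 apart from a mean of 0.59 over the probe sets of Smyd1.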

How the data were processed

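Total RNA of sorted Flk1+Tie2+ cells (100 ng a sample) was labelled for Affymetrix 3' arrays, 1 array with dox and 1 without, per the labels' protocols. The authors deposited linear signal intensities, 1 for each probe set on each array. Their summarisation and scaling are not given in the sources used here. The lowest value is 1 on both arrays (1102 probe sets with dox, 1165 without). Without detection calls or probe-level values, background could not be judged, and the number of arrays limits precision. Of 45037 probe sets 34945 have 1 gene symbol in the platform annotation, 932 have several and 9160 have none listed. Only the first kind was named, and all 10 members matched the RefSeq gene table by Entrez number.

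Differences of log2(signal + 16), the brightest probe set per gene, the signal filter and the fold of 2 were computed with Python 3.11.15, pandas 2.3.3 and numpy 2.4.6, and tested on simulated data. No test was possible with 1 array a group. Each list names its 3 genes with the largest difference past the filter. Members and lists were chosen with earlier results of these data known. Alternatives were other pseudocounts, scalings, filters, folds and probe set rules.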

Additional observations from a re-analysis of the deposited data

How the results depend on the processing

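Results were recomputed with a pseudocount of 1 or 64, equal array medians, quantile normalization, the mean over a gene's probe sets, probe sets with a plain _at ID only, other signal filters and other folds. No paired analysis was possible because each group is 1 array, and for the same reason no array could be left out. The count of regulators 2-fold or more higher, 2 as reported, was 1 with a filter on both arrays, which removes Myocd, and 5 at a fold of 1.5. The count lower, 1 as reported, was 0 at a fold of 4. A filter on both arrays lowered the counts of higher genes to 4 among other heart factors (median 0.49), 3 among cardiac muscle genes (median 0.54), 3 among smooth muscle genes and 1 among cytoskeletal genes. Without a filter the cardiac muscle median was 0.25. With plain _at IDs only, 2 partners and 3 smooth muscle genes were 2-fold or more higher and 1 smooth muscle gene was lower, and 1 was also lower by the mean over probe sets. Equal array medians gave 3 lower genes among other heart factors. They also gave 1 lower cardiac muscle gene, as did quantile normalization and the pseudocount of 1 (1 each). The other 146 values for counts and list medians moved by less than 1.5 times or by less than 0.38, the probe set SD. Among single regulators Myocd gave 6.42, 2.26 and 2.04 (pseudocounts of 1 and 64, mean over probe sets), Hand2 gave 1.37 and Smyd1 0.59 by that mean. Mef2d, Smyd1 and Srf turned to -0.01, -0.00386 and -0.11 with equal medians. Smyd1 and Srf were also lower with plain _at IDs (-0.11 and -0.05), as was Mef2d by the mean (-0.00401).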
